A study of Mus musculus with 6 samples.

Results

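Acetylcholine-releasing neurons were followed through 10 mouse genes, chosen by symbol and found by their identifiers in a table of 56748 genes. The genes were Chat, Slc18a3, Slc5a7 and Ache, which make, store, recycle and break down the transmitter, Chrna4 and Chrnb2, subunits of a nicotinic receptor, and Isl1, Lhx8, Mnx1 and Prph, which mark kinds of cholinergic cell. Polyadenylated RNA had been sequenced from whole homogenized brain tissue of mice that carried MCF10DCIS cells, a human cell line that models ductal carcinoma in situ of the breast, in which the vesicle protein CD63 was joined to the luciferase NanoLuc. There were 3 libraries from day 28 and 3 from day 3 after implantation. All mice of both groups bore these cells, and the title names an intraductal model. Libraries of mice without these cells were not used here, so time after implantation and ageing of the mice cannot be told apart. Strain and age of the mice are not given in the sources used here. The labels carry a different number for each library but do not say that each is a separate animal, so the p-values rest on a spread between libraries that may in part be technical. Of the 10 genes, 9 had reads and passed the level needed for testing, a mean of at least 10 normalized counts, and Mnx1 had no read in any library.

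Cholinergic neurons make acetylcholine from choline and acetyl coenzyme A, load it into vesicles, and take choline back up after the released transmitter is split. In the brain they lie in the basal forebrain, among the interneurons of the striatum, in the medial habenula, in the pontine tegmentum and in the motor nuclei of the brainstem, whose axons leave for the muscles of the head. Forebrain cholinergic neurons depend on the LIM homeodomain factor Lhx8, motor neurons of the somatic type on the homeodomain factor Mnx1, and both kinds on Isl1. Peripherin, the product of Prph, is an intermediate filament of neurons that send axons out of the brain and spinal cord, such as motor neurons.

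Of the 9 genes with reads, Prph, Lhx8 and Isl1 varied most between the 6 libraries, with a highest normalized count 26.6, 7.29 and 6.10 times the lowest in that order, and their promoter windows are shown for that reason. Each window runs from 250 bases before to 50 bases after the start of the RefSeq gene, on the older build GRCm38.p6, 5′ to 3′ on the gene's own strand. They are chr15:99054924-99055223 (+ strand) for Prph, chr13:116309639-116309938 (- strand) for Isl1 and chr3:154330511-154330810 (- strand) for Lhx8. Capitals mark the letters TATAAA of a TATA box, the letters CCAAT of a CCAAT box and the letters GGGCGG of a GC box, elements of core promoters, searched on both strands.
Prph: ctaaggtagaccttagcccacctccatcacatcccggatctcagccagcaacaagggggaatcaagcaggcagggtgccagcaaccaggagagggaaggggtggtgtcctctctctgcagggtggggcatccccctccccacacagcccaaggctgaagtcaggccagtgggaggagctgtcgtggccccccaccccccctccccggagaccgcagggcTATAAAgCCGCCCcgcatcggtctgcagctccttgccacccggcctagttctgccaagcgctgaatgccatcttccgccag
Isl1: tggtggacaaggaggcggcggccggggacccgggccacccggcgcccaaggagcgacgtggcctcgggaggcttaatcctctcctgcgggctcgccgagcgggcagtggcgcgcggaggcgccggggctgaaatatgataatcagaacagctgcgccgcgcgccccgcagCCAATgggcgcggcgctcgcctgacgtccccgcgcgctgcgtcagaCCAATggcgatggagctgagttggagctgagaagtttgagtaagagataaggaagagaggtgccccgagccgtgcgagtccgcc
Lhx8: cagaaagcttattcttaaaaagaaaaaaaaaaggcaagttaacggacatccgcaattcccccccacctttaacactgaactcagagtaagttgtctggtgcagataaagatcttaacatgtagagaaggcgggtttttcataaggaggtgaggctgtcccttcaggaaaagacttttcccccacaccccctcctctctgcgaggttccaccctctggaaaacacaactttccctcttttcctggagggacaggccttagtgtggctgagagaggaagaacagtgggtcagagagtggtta
The Prph window held TATAAA and, next to it, CCGCCC, the GC box read on the other strand. The Isl1 window held CCAAT at 2 places and the Lhx8 window none of the 3 motifs. RefSeq windows were found for all 10 genes. TATAAA was in 2 of them, Prph and Slc5a7, against 13.6% of 32851 windows of the same length. CCAAT was in 3 of the 10, Chat, Isl1 and Mnx1, against 37.4% of all windows, and GGGCGG was in 6 of the 10 against 35.7%. The homeodomain core TAATTA was in 0 of the 10 against 5.3%. GC content was 64.7% in the Prph window, 69.0% in the Isl1 window and 47.0% in the Lhx8 window. These matches describe the letters in the windows and say nothing about binding.

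None of the 9 tested genes passed the threshold between day 28 and day 3 (limma with Benjamini-Hochberg adjustment over all 16162 genes tested, adjusted p below 0.05, two-sided). Over all genes 0.192% were called. Voom on the recovered reads also called 0 of the 9. At an unadjusted p below 0.05 there were 3 of the 9 by limma and 3 by voom, against 13.4% of all tested genes by limma. The 3 by limma were Prph and Ache, lower at day 28, as were 6.39% of all tested genes, and Isl1, higher at day 28, as were 6.98%. In these 3 genes alone among the 9 the libraries of the time points did not overlap, against 18.9% of all tested genes, 9.21% of them lower and 9.71% higher at day 28. Prph was tested only because it was high at day 3, so its place in these counts is partly fixed by the filter. The median log2 difference of the 9 genes was -0.05, day 28 minus day 3, and that of all tested genes -0.01. Of the 9, 4 had a difference above 0, against 48.6% of all tested genes. Group differences are on the log2(normalized count + 1) scale throughout.

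**Figure D1:**
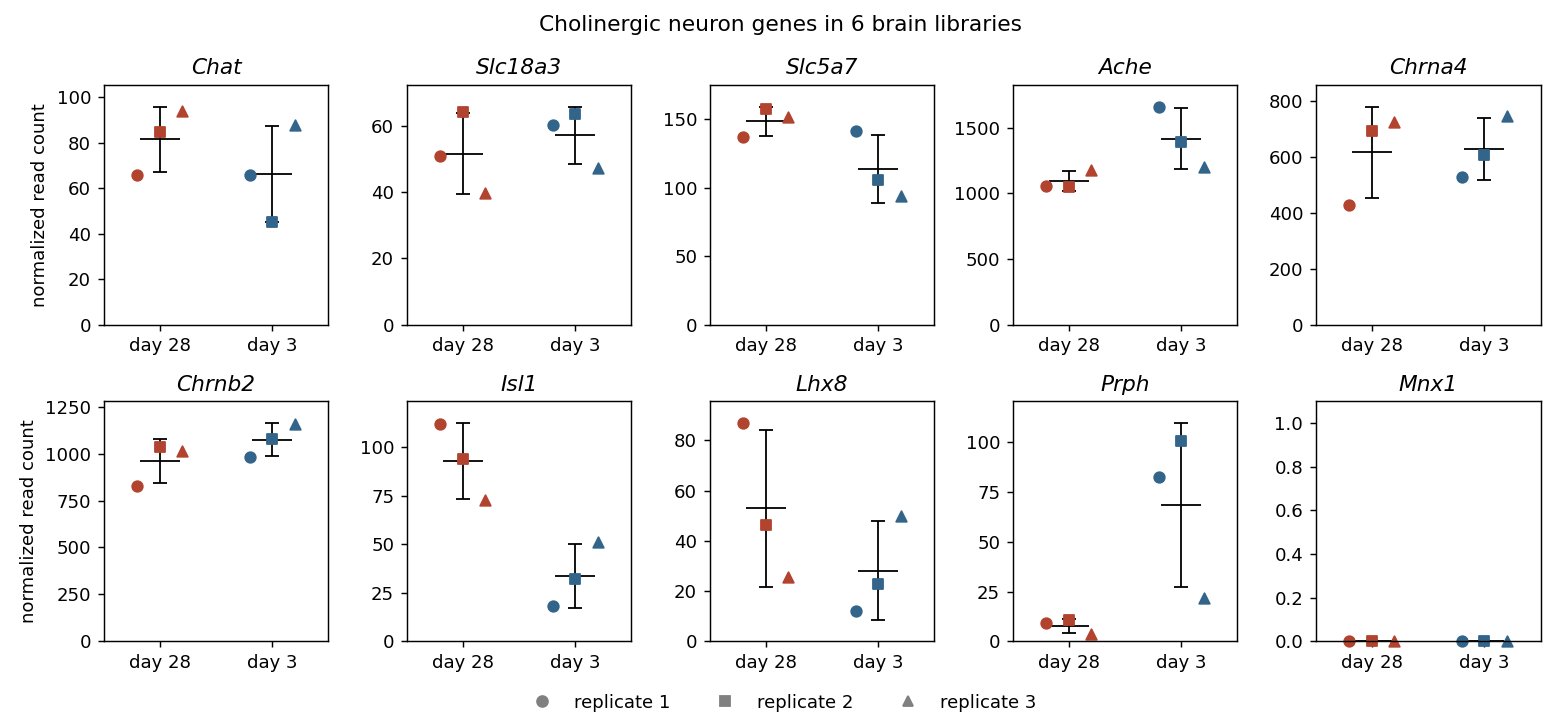
Normalized read counts of the 10 genes in each library, 1 panel per gene with day 28 on the left and day 3 on the right; each vertical axis is linear and starts at 0. Symbols are replicates, and the black line with its bar is the mean ± SD of 3 libraries. Prph is at most 10.7 at day 28 and at least 21.9 at day 3, Isl1 is separated the other way, and Mnx1 is at 0 throughout.

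Total recovered reads ran from 14230520 to 16059196 at day 28 and from 11958137 to 15033955 at day 3. The libraries of day 3 were not alike. Replicates 1 and 2 of day 3 were rich in cerebellar and hindbrain transcripts, while replicate 3 of day 3 lay nearer to the day 28 libraries. The summed level of 12 hindbrain and spinal neuron genes was 11.0, 28.6 and 44.5 normalized counts in the 3 libraries of day 28, in the order of their numbers, and 1648, 770.1 and 133 in those of day 3. The summed level of 12 cerebellar neuron genes reached 3559, 4169 and 6318 in those of day 28, against 27717, 26431 and 3410.1 in those of day 3. Albumin, made in the liver (Alb), was at 67650 normalized counts in day 3 replicate 2, against 21.1 to 1139 in the other 5 libraries. As a check of the tissue, 10 pan-neuronal genes summed to 121033 to 126176 normalized counts at day 28 and 114056 to 126596 at day 3. Of these genes 0 were called, and 4 were below an unadjusted p of 0.05, against 13.4% of all tested genes. Of the 4, 2 were higher and 2 lower at day 28. In bulk tissue, fewer cells of a type and less RNA per cell cannot be told apart, and here neither can be told from a different cut of the brain.

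The enzyme and transporters that define a cholinergic neuron were present in every library at low levels and did not separate the time points. Chat (ENSMUSG00000021919, chromosome 14), choline acetyltransferase, which makes acetylcholine, had 65.9, 84.8 and 93.8 normalized counts in day 28 replicates 1 to 3 and 65.9, 45.2 and 87.6 in day 3 replicates 1 to 3. The groups overlapped, and day 3 replicate 2 was the lowest library. Chat averaged 81.5 ± 14.3 at day 28 and 66.3 ± 21.2 at day 3 (SD, n = 3 each), a log2 difference of 0.33 (SE 0.30, limma adjusted p = 0.684). Without day 3 replicate 2 the log2 difference of Chat was 0.084, and without both day 3 libraries rich in cerebellar transcripts it was -0.12. That omission leaves replicate 3 as the only day 3 library, so values under it are given without a test. Under it the log2 differences of Slc5a7, Chrna4 and Chrnb2 were 0.66, -0.32 and -0.28, and those of the other genes are given below.

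Slc5a7 (ENSMUSG00000023945, chromosome 17), the high-affinity transporter that brings choline back into the terminal, had 137, 157 and 152 normalized counts at day 28 and 141, 106 and 93.7 at day 3. Only day 3 replicate 1 reached the range of the day 28 libraries. The means were 149 ± 10.5 at day 28 and 114 ± 24.6 at day 3 (SD, n = 3 each; log2 difference 0.40, SE 0.21, limma adjusted p = 0.44).

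Slc18a3 (ENSMUSG00000100241, chromosome 14), the transporter that loads acetylcholine into vesicles, had 50.9, 64.3 and 39.8 normalized counts at day 28 and 60.5, 63.7 and 47.5 at day 3. The groups overlapped, with replicate 3 the lowest at either time. The log2 difference of Slc18a3 was -0.16 (SE 0.30, limma adjusted p = 0.857), and it was 0.011 without day 28 replicate 3.

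Chat and Slc18a3 form the cholinergic gene locus on chromosome 14, where the GENCODE annotation places the whole of Slc18a3 inside Chat, on the same strand and clear of its exons. Strand cannot separate reads of the Chat intron from those of Slc18a3, and how the authors counted such reads is not given in the sources used here, so the values of both are uncertain. The log2 value of Chat minus that of Slc18a3 was 0.37, 0.40 and 1.22 in day 28 replicates 1 to 3 and 0.12, -0.49 and 0.87 in day 3 replicates 1 to 3. Slc18a3 stood above Chat in 1 library, day 3 replicate 2. In every other library Chat had the higher normalized count. Per kilobase of exon, averaged over the 6 libraries, Slc18a3 stood at 22.6 and Chat at 15.7 normalized counts, and their ranges over the libraries overlapped.

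Ache (ENSMUSG00000023328, chromosome 5), the esterase that splits acetylcholine, was the most abundant of the 10 per exon length and was lower in the day 28 libraries than in the day 3 libraries. It had 1054, 1051 and 1180.0 normalized counts at day 28 and 1659.7, 1388 and 1199 at day 3. The groups did not overlap, but day 28 replicate 3 and day 3 replicate 3 lay close together. The log2 difference of Ache was -0.36 (SE 0.13, 95% confidence interval -0.65 to -0.07, unadjusted p = 0.0208, limma adjusted p = 0.27). Without the 2 day 3 libraries rich in cerebellar transcripts the log2 difference of Ache was -0.13, and with a covariate for cerebellar genes it was -0.19. Exons of Ache overlap exons of the noncoding gene Gm42456 on the opposite strand in the GENCODE annotation, and whether counting used the strand is not given in the sources used here, so the Ache value is uncertain. Ache is also made by neurons that do not release acetylcholine and in muscle and blood cells.

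The receptor subunits did not separate the time points. Chrna4 (ENSMUSG00000027577, chromosome 2) and Chrnb2 (ENSMUSG00000027950, chromosome 3) encode the alpha4 and beta2 subunits, which assemble into the most common high-affinity nicotine receptor of the brain and are made by many neurons that are not cholinergic. Chrna4 had 429, 695 and 728 normalized counts at day 28 and 530.3, 609 and 748 at day 3, with replicate 1 the lowest at either time. Its log2 difference was -0.05 (SE 0.21, 95% confidence interval -0.53 to 0.43, limma adjusted p = 0.947). Its sign turned when day 28 replicate 1 was left out, to 0.19, and when day 3 replicate 3 was, to 0.081. Chrnb2 had 826, 1037 and 1016 normalized counts at day 28 and 985, 1077 and 1161 at day 3. The groups overlapped, and the log2 difference of Chrnb2 was -0.17 (SE 0.12, 95% confidence interval -0.44 to 0.10, limma adjusted p = 0.586). Exons of Chrnb2 overlap exons of Adar on the opposite strand in the GENCODE annotation. The libraries were stranded per the labels' protocols, but whether counting used the strand is not given in the sources used here, so the Chrnb2 value is uncertain.

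Per kilobase of exon the 9 genes with reads fell into 3 tiers by normalized count averaged over the 6 libraries. Ache stood at 272, and its range over the libraries, 227 to 359, did not overlap that of Chrna4. Chrna4 at 124 and Chrnb2 at 121 overlapped each other and not the gene below. The other 6 genes, from Slc5a7 at 23.2 through Slc18a3 at 22.6, Prph at 19.1, Lhx8 and Isl1 at 16.0 each, to Chat at 15.7, overlapped from neighbour to neighbour. Prph had the widest range, from 1.90 to 50.4 per kilobase. Exon lengths came from an older build than the authors used, so these levels are approximate.

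**Figure D2:**
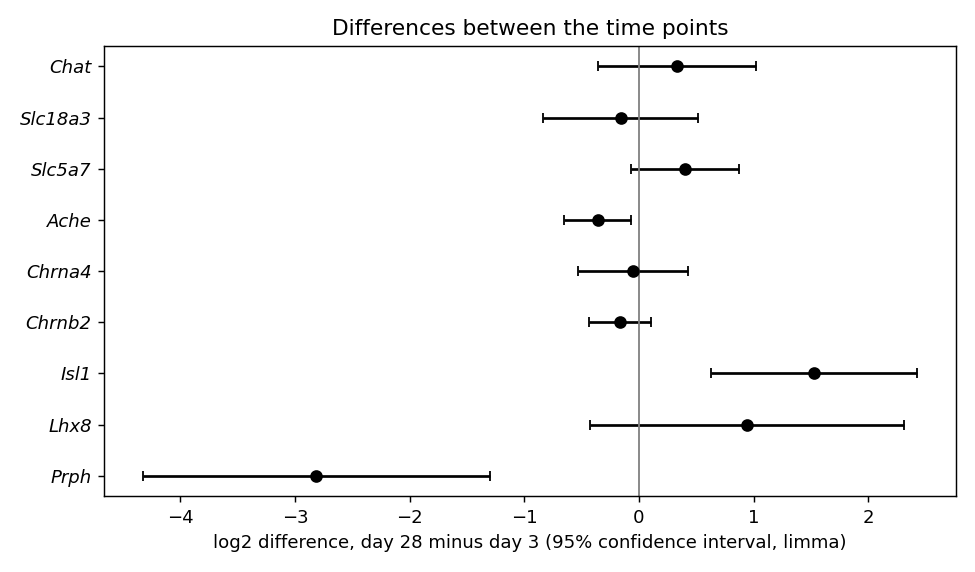
Log2 differences of the 9 genes with reads, day 28 minus day 3, on the log2(normalized count + 1) scale; points are limma estimates and bars unadjusted 95% confidence intervals from 3 libraries per time. The intervals of Prph, Isl1 and Ache leave out 0, and no gene passed after adjustment over all tested genes. Prph reached the level needed for testing through day 3 alone, so its difference is partly fixed by the filter.

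Prph and Isl1 had the largest differences of the set, in opposite directions. Isl1 (ENSMUSG00000042258, chromosome 13) had 112, 93.8 and 73.0 normalized counts in day 28 replicates 1 to 3 and 18.3, 31.9 and 51.1 in day 3 replicates 1 to 3. Every day 28 library was above every day 3 library, with day 28 replicate 3 and day 3 replicate 3 nearest to each other. Isl1 averaged 92.8 ± 19.4 at day 28 and 33.8 ± 16.5 at day 3 (SD, n = 3 each; log2 difference 1.53, SE 0.40, unadjusted p = 0.00403, limma adjusted p = 0.159). It passed only when day 3 replicate 3 was left out, with a log2 difference of 1.88 and a limma adjusted p of 0.0363, against a range of 0.0363 to 0.522 over the 18 alternatives. Without the 2 day 3 libraries rich in cerebellar transcripts the log2 difference of Isl1 was 0.83, against day 3 replicate 3 alone.

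Lhx8 (ENSMUSG00000096225, chromosome 3) had 86.9, 46.4 and 25.6 normalized counts in day 28 replicates 1 to 3 and 11.9, 22.6 and 49.9 in day 3 replicates 1 to 3. The groups overlapped: day 3 replicate 3 held more than day 28 replicates 2 and 3. Lhx8 averaged 53.0 ± 31.1 at day 28 and 28.1 ± 19.6 at day 3 (SD, n = 3 each; log2 difference 0.95, SE 0.60, limma adjusted p = 0.539). The difference of Lhx8 rested on single libraries, with a log2 value of 0.51 when day 28 replicate 1 was left out, 0.47 when day 3 replicate 1 was and 1.46 when day 3 replicate 3 was. Without the 2 day 3 libraries rich in cerebellar transcripts it was -0.084, and with a covariate for cerebellar genes it was 0.068.

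The striatal neuron list, 12 genes of medium spiny neurons, was higher at day 28 in the same libraries. All 12 tested members had a difference above 0 with a median of 0.75, against 48.6% of all tested genes above 0, and 11 of the 12 were below an unadjusted p of 0.05, against 13.4%. Rgs9, a regulator of G protein signalling in the striatum, alone passed (log2 difference 1.04, limma adjusted p = 0.0411), against 0.192% of all tested genes called. It did not pass with voom (adjusted p = 0.0716), and limma with the replicate number as a block called 0 genes. The striatal list deviated from its genes' means by 0.57, 0.25 and 0.29 (mean log2) in the day 28 libraries and by -0.67, -0.46 and 0.01 in the day 3 libraries. Like Isl1, the list was highest in day 28 replicate 1 and lowest in day 3 replicate 1. Isl1 is also made in developing striatal projection neurons and in the hypothalamus. Cells of the pituitary make Isl1 too, and 10 pituitary genes summed to 21.0, 23.2 and 496 normalized counts at day 28 and 33.0, 11.3 and 320.1 at day 3, with no Fshb read. Replicate 3 held the highest of these sums at either time, but from different genes, named here after their values were seen. In day 28 replicate 3, Gh and Prl stood at 238 and 228 normalized counts and Pomc at 21.8. In day 3 replicate 3, Pomc stood at 312, with Gh at 4.87 and Prl at 2.43. Isl1 in replicate 3 was the lowest of day 28 and the highest of day 3. The part of striatal or pituitary tissue in the Isl1 and Lhx8 values was not tested.

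Prph (ENSMUSG00000023484, chromosome 15) was lower at day 28. It had 8.98, 10.7 and 3.79 normalized counts in day 28 replicates 1 to 3, from 9, 12 and 4 reads, and 82.4, 101 and 21.9 in day 3 replicates 1 to 3, from 90, 98 and 18 reads. The groups did not overlap, and day 3 replicates 1 and 2 stood far above the other 4 libraries. Prph reached the level needed for testing through day 3 alone. Its separation and p-values are therefore partly fixed by the filter. Prph averaged 7.83 ± 3.60 at day 28 and 68.4 ± 41.3 at day 3 (SD, n = 3 each; log2 difference -2.81, SE 0.67, unadjusted p = 0.00235, limma adjusted p = 0.132). It passed only when day 3 replicate 3 was left out, with a log2 difference of -3.48 and a limma adjusted p of 0.0203, against a range of 0.0203 to 0.491 over 17 alternatives. Without day 3 replicates 1 and 2 the log2 difference of Prph was -1.47, against day 3 replicate 3 alone.

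Mnx1 (ENSMUSG00000001566, chromosome 5), the homeodomain factor of somatic motor neurons, had 0 reads in all 6 libraries. A count of 0 allows up to 3 reads per library, or 2.68 to 3.00 normalized counts at day 28 and 2.75 to 3.65 at day 3, a limit for counting error only. Prph therefore had reads in every library while the other motor neuron gene of the set had none. Isl2, a LIM homeodomain factor of motor neurons, had no read either.

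The comparison of motor neuron with forebrain genes reduced to Prph against Lhx8. The log2 value of Prph minus that of Lhx8 was -3.14, -2.02 and -2.47 in day 28 replicates 1 to 3 and 2.69, 2.11 and -1.15 in day 3 replicates 1 to 3. Lhx8 exceeded Prph in all 3 day 28 libraries and in day 3 replicate 3, and Prph exceeded Lhx8 in day 3 replicates 1 and 2. Of the reads of both genes together, Prph took 9.38%, 18.8% and 12.9% in day 28 replicates 1 to 3 and 87.4%, 81.7% and 30.5% in day 3 replicates 1 to 3. The exact Clopper-Pearson 95% interval of day 3 replicate 3, 19.2% to 43.9%, overlapped those of day 28 replicate 2 (10.1% to 30.5%) and replicate 3 (3.63% to 29.8%) but not that of day 28 replicate 1 (4.38% to 17.1%). These intervals cover counting error only. Libraries of a group differed far beyond that, so the overlap of intervals says nothing about the time points. With Mnx1 averaged in at 0, the motor minus forebrain value was -4.06 ± 0.64 at day 28 and -1.71 ± 1.52 at day 3 (SD, n = 3 each), a difference of -2.35. For Prph alone the difference was -3.76. Without the 2 day 3 libraries rich in cerebellar transcripts the motor minus forebrain difference was -0.65. These values describe the libraries and were given no test, because they combine genes chosen together.

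**Figure D3:**
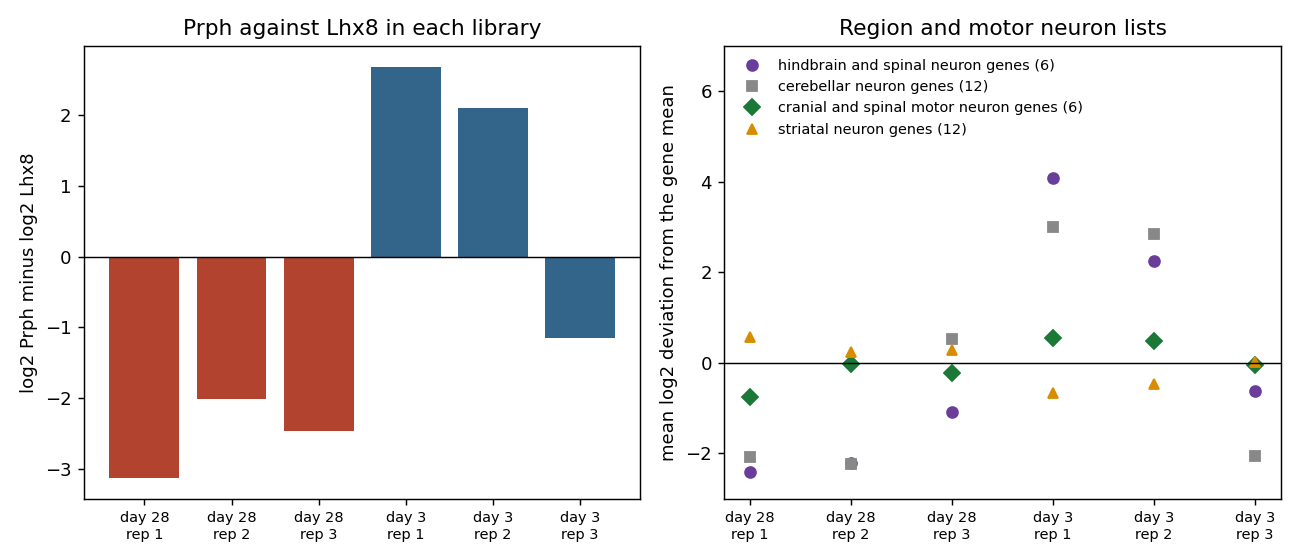
Left, log2 Prph minus log2 Lhx8 in each library, as bars from 0, with day 28 in red and day 3 in blue; right, mean log2 deviation of 4 gene lists from each gene's own mean in the same libraries, with the number of tested genes in brackets. The bars are positive in day 3 replicates 1 and 2 alone, the libraries where the hindbrain list stands at 4.08 and 2.26 and the cerebellar list at 2.99 and 2.84. Most of the tested hindbrain genes reached the level needed for testing through day 3 alone, so the height of that list there is partly fixed by the filter.

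Other genes of motor neurons with cranial or spinal axons gave no call. Of 16 listed, 15 were in the table, 6 were tested, and 3 of the 6 were below an unadjusted p of 0.05, all lower at day 28, as were 6.39% of all tested genes. Their median log2 difference was -0.79. Nefh, the heavy neurofilament subunit of large axons, had 1092, 1513 and 1611 normalized counts at day 28 and 3155, 3113 and 1978 at day 3 (log2 difference -0.96, limma adjusted p = 0.109). Ret, the receptor for GDNF-family factors, had 87.9, 189 and 238 at day 28 and 571, 569 and 308 at day 3 (log2 difference -1.55, limma adjusted p = 0.138). As for Prph, the groups did not overlap and day 3 replicate 3 was the lowest of day 3. The summed level of the 15 genes was 1414, 2001 and 2079 at day 28 and 4270.1, 4173 and 2596 at day 3, most of it Nefh, which large neurons of many regions make. The part of brainstem tissue in the Prph values was not tested. Sensory ganglion genes, another source of Prph, had 7 of 10 members tested and a summed level of 173 to 243 normalized counts at day 28 and 144 to 270.2 at day 3, with 0 called, none below an unadjusted p of 0.05 and no Mrgprd read. The tested sensory genes deviated from their means by -0.13, -0.16 and -0.32 (mean log2) at day 28 and by 0.80, 0.26 and -0.45 at day 3. Tlx3, a homeobox factor of sensory and hindbrain neurons named here after its values were seen, had no read at day 28 and 38.5, 51.4 and 0 normalized counts at day 3 (unadjusted p = 0.0553, limma adjusted p = 0.383). Its reads were thus in day 3 replicates 1 and 2, the libraries where Prph was highest, and the part of sensory neurons in the Prph values was not tested. Both Tlx3 and Prph reached the level needed for testing through day 3 alone, so their p-values are partly fixed by the filter.

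Genes of forebrain cholinergic neurons gave no call either. All 10 were tested, 9 had a difference above 0, against 48.6% of all tested genes, and the median log2 difference was 0.45. At an unadjusted p below 0.05 there were 3, all higher at day 28, as were 6.98% of all tested genes. The summed level was 1246, 1488 and 1145 normalized counts at day 28 and 1169.7, 1168 and 953 at day 3, so the groups overlapped. The 2 most abundant, Ecel1 and Lhx6, had log2 differences of 0.24 and 0.10 (limma adjusted p = 0.513 and 0.826). Lhx6, a LIM homeodomain factor, is also made by cortical interneurons. The 3 with the lowest unadjusted p included Gbx1 and Nkx2-1, factors of the ventral forebrain named here after their values were seen, with log2 differences of 1.22 and 1.17 (limma adjusted p = 0.307 for each). The groups of both overlapped. Slc17a8, likewise named after its values were seen, had the lowest p of the 3 (log2 difference 0.66, limma adjusted p = 0.301), and its groups did not overlap. Zic4, named in the same way, alone had a difference below 0 (-0.33, limma adjusted p = 0.758). The median log2 difference was 0.33 over 7 tested medial habenula genes, 4 of them above 0 and 2 below an unadjusted p of 0.05, with 0 called. Over all tested genes 13.4% were below that p.

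The other receptors and the choline pathway gave no call by limma, and voom called 0 genes in any of the lists described here, the striatal list included. Of 14 further nicotinic subunits, 7 were tested, 2 of them with a difference above 0 and 2 below an unadjusted p of 0.05, and the median log2 difference was -0.04. Over all tested genes 48.6% had a difference above 0 and 13.4% an unadjusted p below 0.05. Chrna7, which forms the homomeric alpha7 receptor, had 202, 232 and 216 normalized counts at day 28 and 180.4, 144 and 168 at day 3 (log2 difference 0.40, limma adjusted p = 0.324). Chrna5, an accessory subunit, had a log2 difference of 0.34 (limma adjusted p = 0.781). Chrna6, a subunit of dopamine neurons named here after its values were seen, had 0, 0.893 and 13.3 at day 28 and 40.3, 36.0 and 25.6 at day 3 (limma adjusted p = 0.184). Chrna6 reached the level needed for testing through day 3 alone, so its p-value is partly fixed by the filter. The muscle subunits Chrnd and Chrng had no read. The other muscle subunits, Chrna1, Chrnb1 and Chrne, named after their values were seen, had 13, 62 and 10 reads in all.

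All 5 muscarinic receptors were tested and 4 had a difference above 0 and 1 an unadjusted p below 0.05, with a median log2 difference of 0.23. The shares over all tested genes were 48.6% above 0 and 13.4% below that p. Chrm1, the main cortical muscarinic receptor, had 1795, 1922 and 1735 normalized counts at day 28 and 1268, 1401 and 2107 at day 3 (log2 difference 0.23, limma adjusted p = 0.612), so that day 3 replicate 3 was the highest of the 6. Chrm3 had a log2 difference of 0.25 (limma adjusted p = 0.492). The 9 chaperones and Ly6 modulators of nicotinic receptors had a median log2 difference of -0.01, with 4 above 0 and 1 below an unadjusted p of 0.05. Lynx1, a membrane-anchored brake on nicotinic receptors, averaged 5554 ± 671 at day 28 and 6483 ± 500.3 at day 3 (SD, n = 3 each; log2 difference -0.23, limma adjusted p = 0.417). Ly6h averaged 1410.1 ± 134 at day 28 and 1397 ± 339 at day 3.

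Of 15 genes for acetylcholine and choline handling, 12 were tested, 3 of them with a difference above 0 and 1 below an unadjusted p of 0.05, and the median log2 difference was -0.16. Among all tested genes 48.6% lay above 0 and 13.4% below that p. Slc44a1, a choline transporter of many cells, averaged 1403 ± 45.3 at day 28 and 1604 ± 80.3 at day 3 (SD, n = 3 each; log2 difference -0.19, limma adjusted p = 0.375). Chka, choline kinase, had a log2 difference of -0.12 (limma adjusted p = 0.852). Bche, the butyrylcholinesterase that the liver secretes, named after its values were seen, was highest in day 3 replicate 2, the library rich in Alb, with 212 normalized counts against 43.6 to 97.3 in the other 5. Colq, the collagen tail that anchors Ache at muscle and likewise named after its values were seen, had 9.98, 6.25 and 3.79 at day 28 and 33.9, 42.2 and 11.0 at day 3 (log2 difference -1.85, limma adjusted p = 0.291), and like Prph it was highest in day 3 replicates 1 and 2. Colq reached the level needed for testing through day 3 alone, so its p-value is partly fixed by the filter.

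**Figure D4:**
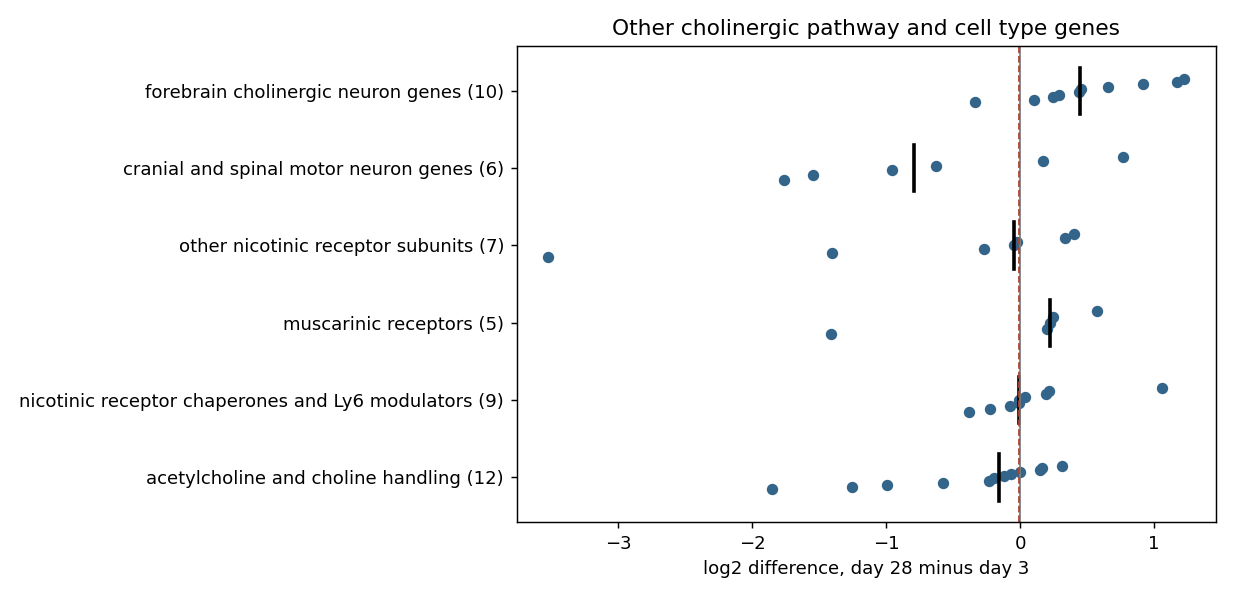
Log2 differences, day 28 minus day 3, of the tested genes in 6 lists, 1 dot per gene, with the number of tested genes in brackets. Black bars are list medians, the grey line is 0 and the dashed red line the median of all tested genes, -0.01; forebrain cholinergic genes lie mostly above 0 with a median of 0.45 and cranial and spinal motor neuron genes have a median of -0.79.

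The genes whose pattern over the 6 libraries was most like a member's were found by Pearson correlation of log2 values, over all tested genes and as a description only. For Chat they were Cebpg (r = 0.990), Trpm4 (r = 0.988) and Ttc26 (r = 0.987). For Lhx8 they were Tac1 (r = 0.991), Dhx36 (r = 0.987) and Ccdc151 (r = 0.979). Tac1, which encodes substance P, is in the striatal list above and had 760, 629 and 504 normalized counts at day 28 and 365, 466 and 589 at day 3, in the order of libraries of Lhx8 except that day 28 replicate 2 and day 3 replicate 3 swapped places. For Prph they were Asah1 (r = 0.994), Rbms2 (r = 0.992) and Timp4 (r = 0.991). Above r = 0.95 there were 29 genes for Chat, 41 for Lhx8 and 84 for Prph, so the named genes are a few of many. All values of a library share its depth and tissue. Slc18a3, of the same locus as Chat, was not among the genes most like Chat and ran the other way (r = -0.61 with Chat).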

How the data were processed

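The authors deposited 1 table of log2 values for 56748 genes in 6 libraries; the build was GRCm39 per the submitters' processing notes, while the aligner, counter and annotation behind it are not given in the sources used here. Once the log2 was undone and 1 subtracted, 100% of the deposited log2 values fell on whole reads, within 0.001 reads, so the values are read counts divided by a library factor (0.822 to 1.12), plus 1, on a log2 scale. Group values are these normalized counts. Symbols matched 52073 identifiers (GENCODE M21); exon lengths and overlaps came from that release, on an older build. A gene was tested where its normalized counts averaged 10 or more over the 6 libraries. Some genes, Prph, Chrna6, Colq and Tlx3 among them, passed through day 3 alone. The filter kept such genes only because they were high at day 3. The test was limma 3.58.1 (R 4.3.3), run on log2(normalized count + 1) with group as the only term, an intensity trend and Benjamini-Hochberg adjustment over 16162 genes. The fit was tested on simulated data. The members and lists were chosen with earlier results of these data known. Named genes were the 10 members and, by list, members past the threshold or else the 2 most abundant, and the 3 genes most like Chat, Lhx8 and Prph; listed genes without a read, Alb, overlapping genes and those marked in the text were named outside this rule, after their values were seen; lists of surrounding tissue are given as sums or counts. Libraries of a group differed far beyond sampling noise (chi-square per degree of freedom at least 8.93). Clopper-Pearson intervals and limits for 0 reads cover counting error only, and limma intervals rest on the spread between libraries. Alternatives covered pseudocount, filter, scaling, variance model, voom, replicate block, cerebellar content and single libraries. Figures were drawn with matplotlib 3.10.9.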

Additional observations from a re-analysis of the deposited data

How the results depend on the processing

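Of 160 values of single members under 18 alternatives, 152 kept their direction and their side of the threshold, 6 turned their sign and 2 passed. The 2 that passed, and those that turned for Chrna4 (0.19 without day 28 replicate 1, 0.081 without day 3 replicate 3) and for Slc18a3 (0.011 without day 28 replicate 3), came with a library left out. Over such omissions Chrna4 ran from -0.19 to 0.19 and Slc18a3 from -0.33 to 0.011. Without the 2 libraries rich in cerebellar transcripts, which leaves 1 day 3 library and the day 28 spread alone, the log2 differences turned for Chat (-0.12), Slc18a3 (0.094) and Lhx8 (-0.084) and the motor minus forebrain difference was -0.65; limma then called 0 genes (1904 at an unadjusted p below 0.05), which is no test of the time points. With all 6 libraries and Prph alone as the motor gene, chosen after seeing the data, the difference was -3.76. With single libraries left out the median of the members ran from -0.16 to 0.19, the latter without day 28 replicate 1, and the motor minus forebrain difference from -3.20 to -1.75. The number of genes called, 31 in all, was 1 when day 28 replicate 1 was left out, 623 when day 3 replicate 3 was, and 2 when day 28 replicate 2, day 28 replicate 3 or day 3 replicate 2 was. It was 48 with a filter at a mean of 1, 3 without the intensity trend, 74 with a robust prior, 69 with library weights, 2 with a covariate for cerebellar genes and 0 with voom (2113 at an unadjusted p below 0.05). With the replicate number as a block limma called 0 genes (2386 at an unadjusted p below 0.05). Same-numbered libraries had correlations of 0.034, 0.131 and -0.062. Day 28 replicates 1 and 2 each correlated best with their own number, and day 28 replicate 3 with day 3 replicate 1 (0.16). With 3 libraries per time, these values cannot decide whether same-numbered libraries share more than a number. Filtering at a mean of 50 removed Prph and Lhx8, so no motor minus forebrain value was possible there. Causes were not tested. Depth limits the genes with few reads most: Prph rested on 4 to 12 reads per day 28 library.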
